A study of Rattus norvegicus with 20 samples.

Results

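Liver mRNA levels of Line-C were compared with those of Sprague-Dawley (S-D), 4 rats against 4, which are 8 of the 20 rats of a series on 5 rat strains and lines. The arrays were taken by their strain labels, and the difference was described over the 7168 of 15923 ProbeSets with a mean log2 signal of at least 4 over the 20 arrays, the limit below which a gene was taken as not expressed. A ProbeSet is the group of probes on the Affymetrix RAE230A array that reports 1 transcript. Line-C descends from crosses of Long-Evans (*Turku/AB*) (L-E) with Han/Wistar (*Kuopio*) (H/W) and carries wild-type *Ahr*, and S-D is an out-bred strain that also carries wild-type *Ahr*, so the *Ahr* allele did not separate the groups. Of the groups given beside them, Line-A comes from the same crosses and carries the variant *Ahr* of H/W, L-E is in-bred with wild-type *Ahr*, and H/W is a closed colony with the variant allele. All rats were males of 10 to 12 weeks, and by the treatment notes all had been given corn oil by gavage 19 h before the liver was taken, although the labels of the S-D arrays say only control. Each array held RNA from the whole liver of 1 rat, without pooling.

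The liver clears foreign compounds with cytochromes P450, hydrolases and conjugating enzymes, makes cholesterol, bile acids and most plasma proteins, and holds macrophages, endothelium and stellate cells among its hepatocytes. Hepatocytes carry out most of the metabolic work, the macrophages and endothelium present antigen on class II molecules, and the stellate cells and fibroblasts lay down collagen. In whole-liver RNA, fewer cells of a type and less RNA per cell cannot be told apart. The labelled tissue was borne out by its markers, since the mean of the 9 hepatocyte markers on the array lay between 13.7 and 13.85 log2 units over the Line-C arrays and between 13.68 and 13.86 over the S-D arrays. *Alb*, albumin, averaged 16.68 ± 0.03 in Line-C and 16.67 ± 0.03 in S-D. The 4 S-D arrays had a scan day, a chip lot and an operator of their own, and the 4 Line-C arrays shared another day and lot with Line-A. The strain therefore cannot be told apart from the day, lot and operator, and the part of the day was not tested. An alternative fit took scan day as a random block, with 1 common correlation of 0.176 for all ProbeSets. Since no day held both groups, this fit cannot separate day from strain. A call kept in it is therefore no test of the day. As to RNA quality, the 3' probes of GAPDH read 0.45 ± 0.05 log2 units above the 5' probes in Line-C and 0.56 ± 0.02 in S-D (SD, n = 4 each), and the part of this gap was not tested.

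Line-C and S-D livers differed in 611 of the 7168 ProbeSets at 1% FDR (limma over all 20 arrays, Benjamini-Hochberg adjustment), which is 8.52%. Of these, 224 were higher and 387 were lower in Line-C. The differences were of at least 2-fold in 229 ProbeSets, 60 higher and 169 lower, and the median size of a called difference was 0.84 log2 units. Over all 7168 ProbeSets the median difference was 0.03. Setting the arrays to equal medians turned the split to 120 higher and 465 lower, and with a random block for scan day 206 calls were made, 62 higher and 144 lower, all of them among the 611. Each gene said below to lose its call when single arrays were left out also lost it with this block. Below, a difference is Line-C minus S-D in log2 units ± its SE, a mean is given ± SD over 4 rats, and an adjusted p is that of limma. With 1 ProbeSet for each of 5388 genes, 174 genes were higher in Line-C (3.23%) and 262 were lower (4.86%). The counts of called genes in the lists below are to be read beside these shares. The 4 Line-C values did not overlap the 4 S-D values in 602 of the 611 called ProbeSets, against 32.9% of all those described. Of the 611, 95 carry no single gene symbol, among them the largest positive difference, 6.41 ± 0.25 log2 units (SE), and they are not named here.

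**Figure D1:**
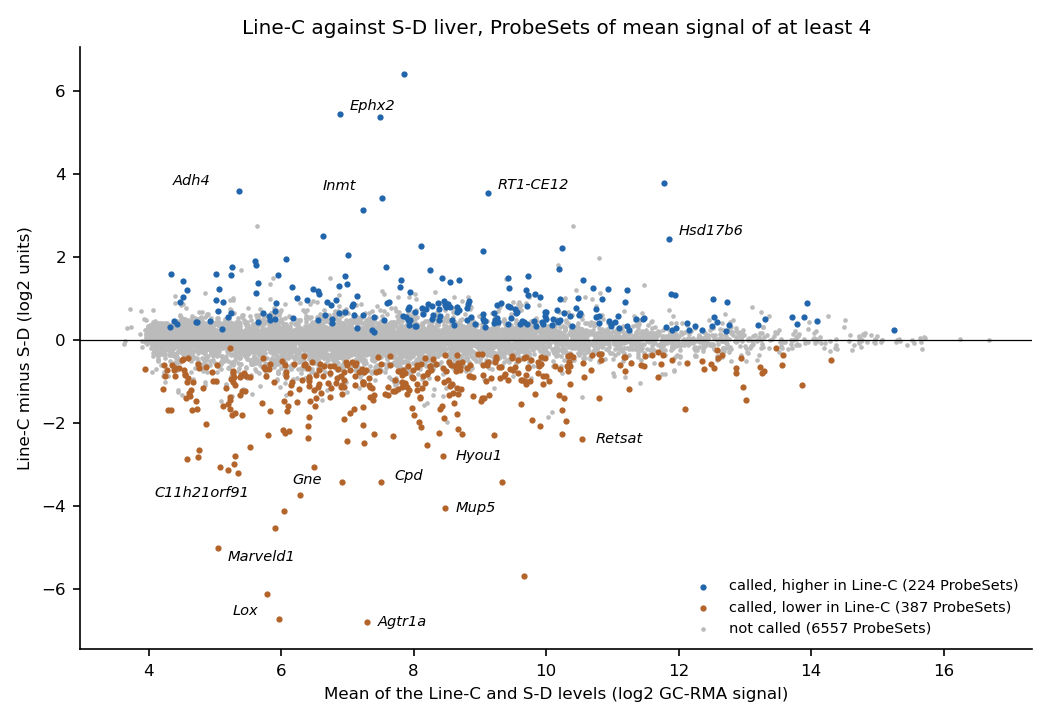
Difference between Line-C and S-D livers (vertical axis, Line-C minus S-D in log2 units) against the mean of both group levels (horizontal axis, log2 GC-RMA signal), with 1 point for each of 7168 ProbeSets. Points called at 1% FDR are blue where Line-C was higher (224) and brown where it was lower (387), and the lower ones reach to -6.79 for *Agtr1a*.

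Among the genes higher in Line-C, *Ephx2* had the largest difference. It encodes the soluble epoxide hydrolase, which opens the epoxides that P450 enzymes make from fatty acids. Its level was 9.48, 9.71, 9.69 and 9.56 log2 units in the Line-C rats, against 4.47, 4.47, 3.46 and 4.25 in the S-D rats. All S-D livers lay close to the limit of expression and all Line-C livers far above it, a difference of 5.45 ± 0.23 (adjusted p = 1.76e-10). Since S-D replicate 3 was under the limit, its size is a lower bound. *Adh4*, a class II alcohol dehydrogenase that oxidises retinol and long-chain alcohols, stood at 6.71, 7.03, 7.46 and 7.44 in Line-C and at 3.70, 3.71, 3.15 and 3.71 in S-D. All S-D values were under the limit, so that its difference of 3.59 ± 0.59 is a lower bound in size (adjusted p = 8.60e-04, and 0.0195 with a random block for scan day).

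*Hsd17b6*, a hydroxysteroid dehydrogenase, was measured at 13.13, 13.10, 12.81 and 13.22 in Line-C, against 10.88, 10.49, 10.83 and 10.33 in S-D. The 2 sets of values lay far apart at a high level, with a difference of 2.43 ± 0.17 (adjusted p = 8.67e-08). *Acot4*, a peroxisomal acyl-CoA thioesterase, had 8.12, 7.65, 7.69 and 8.10 in Line-C and 6.18, 4.84, 4.95 and 5.54 in S-D, with the S-D rats more spread than the Line-C rats (2.51 ± 0.33, adjusted p = 1.04e-04). *Inmt*, an indolethylamine N-methyltransferase, had 9.27, 9.20, 9.67 and 8.81 in Line-C and 5.78, 4.13, 7.68 and 5.67 in S-D. The S-D rats differed widely among themselves in this gene, with replicate 3 nearest to the Line-C rats, and its call (3.42 ± 0.65, adjusted p = 0.00287) was lost without Line-C replicate 3 (adjusted p = 0.0109) and without S-D replicate 2. *Bst2*, an interferon-induced membrane protein that tethers budding viruses, averaged 11.35 ± 0.48 in Line-C and 9.13 ± 0.17 in S-D (SD, n = 4 each), and *Pdia5*, a protein disulfide isomerase of the endoplasmic reticulum, averaged 10.12 ± 0.19 in Line-C and 7.98 ± 0.98 in S-D. Both were higher in every Line-C rat than in any S-D rat, as the choice of these genes required (adjusted p = 2.48e-04 and 2.79e-04). With only the 8 arrays of Line-C and S-D in the fit, *Pdia5* lost its call (adjusted p = 0.0264).

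Smaller rises at the head of the list belonged to unlike functions. They took in *Retreg3*, a receptor for the breakdown of endoplasmic reticulum (1.81 ± 0.13, adjusted p = 9.81e-08), *L3hypdh*, a dehydratase of hydroxyproline (1.91 ± 0.21, adjusted p = 1.74e-05), and *Dync1li1*, a light intermediate chain of dynein (1.75 ± 0.18, adjusted p = 5.96e-06). *Uba6*, a ubiquitin-activating enzyme, differed by 1.6 ± 0.26 and *Mpdz*, a scaffold protein with many PDZ domains, by 1.76 ± 0.31. Both of these calls were lost with a random block for scan day (adjusted p = 0.0182 and 0.0318). Also among the 20 largest rises were *Eif4ebp3*, an inhibitor of cap-dependent translation (1.68 ± 0.32), *Gpr108*, a membrane protein (1.58 ± 0.29, a lower bound in size), *Prim1*, a DNA primase subunit (1.57 ± 0.30), and *Acss2*, which makes acetyl-CoA from acetate (1.54 ± 0.31). Their calls were lost when any of 1 to 4 arrays was left out, with adjusted p of up to 0.0118, 0.01005, 0.0104 and 0.0180 in that order (without Line-C replicate 3 for *Eif4ebp3*, S-D replicate 3 for *Prim1* and S-D replicate 2 for the others).

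**Figure D2:**
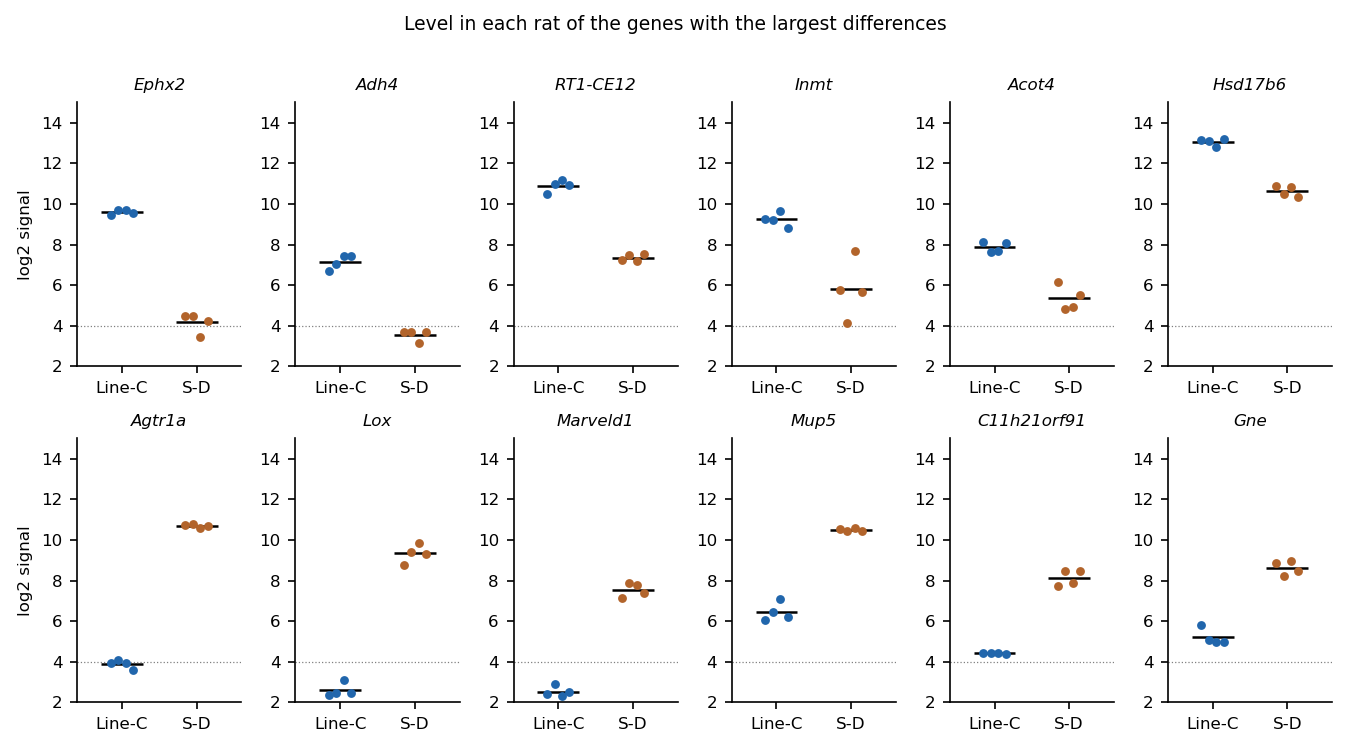
Level of 12 genes with large differences in each rat (vertical axis, log2 GC-RMA signal, points are rats, bars are group means, the dotted line is the limit of 4), with Line-C left and S-D right in each panel. In all 12 genes the 4 Line-C values lie apart from the 4 S-D values, which was a condition for naming them. The S-D values of *Inmt* are the most scattered.

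Epoxide hydrolases and enzymes of eicosanoid metabolism had 5 genes higher and 1 lower of 16, where eicosanoids are the signalling lipids made from arachidonic acid. The median difference of the list was 0.16 log2 units, against 0.03 over all genes. Besides *Ephx2*, both arachidonic acid epoxygenases of the Cyp2j family were higher. *Cyp2j4* had 9.39, 9.29, 9.75 and 9.23 in Line-C and 7.95, 7.42, 8.12 and 8.37 in S-D, and *Cyp2j3* had 10.80, 10.69, 10.71 and 10.62 in Line-C and 9.30, 9.67, 9.83 and 10.02 in S-D. Neither gene overlapped between the groups (1.45 ± 0.17 and 1.0 ± 0.14, adjusted p = 3.13e-05 and 1.88e-04). Near-identical Cyp2j copies can share probes, so the split between these 2 genes is uncertain. The microsomal epoxide hydrolase *Ephx1*, which detoxifies epoxides of foreign compounds, ran the other way at 11.13, 11.42, 11.38 and 11.13 in Line-C and 12.95, 13.30, 12.60 and 12.84 in S-D (-1.66 ± 0.23, adjusted p = 1.38e-04). *Hook1*, a linker of microtubules and cargo, lies next to *Cyp2j4* and *Cyp2j3* among the described genes on chromosome 5 of the GRCr8 annotation and was also higher (0.62 ± 0.12, adjusted p = 0.00316), though its call was lost when any of 4 arrays was left out (adjusted p up to 0.0120, without Line-C replicate 2). These 3 genes formed 1 of only 2 runs of 3 or more neighbouring genes called in 1 direction.

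The wider list of P450 and other phase I enzymes was divided, with 5 genes higher and 5 lower of 43, while the aryl hydrocarbon receptor pathway had 2 higher of 6. *Cyp3a9*, a P450 of steroids and drugs, was higher in every Line-C rat, with a mean of 11.06 ± 0.16 in Line-C and 9.34 ± 0.58 in S-D (1.72 ± 0.23, adjusted p = 1.16e-04, and 0.01105 with only the 8 arrays of Line-C and S-D in the fit). *Cyp1a2*, a P450 of aromatic amines and a known target of the aryl hydrocarbon receptor, had 14.28, 14.30, 14.46 and 14.47 in Line-C and 13.61, 13.23, 13.65 and 13.47 in S-D. The ranges did not touch (0.89 ± 0.10, adjusted p = 2.12e-05). *Ahr* itself was under the limit in all 8 rats, at 3.13 ± 0.03 in Line-C and 3.11 ± 0.08 in S-D, so its level was not measured here, and the same held for its partner *Arnt*, at 3.03 ± 0.02 in Line-C and 2.98 ± 0.02 in S-D. *Cyp1a1*, the classic target, also averaged under the limit in both groups, with values of 5.31, 2.98, 4.33 and 3.04 in Line-C and 2.72, 2.29, 2.40 and 2.84 in S-D, of which 2 Line-C rats passed 4 (adjusted p = 0.332). *Nqo1*, a quinone reductase and another known target, had 8.80, 8.41, 8.30 and 9.73 in Line-C and 8.35, 5.05, 4.25 and 5.05 in S-D. S-D replicate 1 stood within the Line-C range and the other S-D rats well below it, and the call (adjusted p = 0.00847) was lost when any of 16 arrays was left out, with an adjusted p up to 0.0321 (without S-D replicate 3). Among the lower enzymes, *Cyp2b3* had a difference of -1.14 ± 0.17 (adjusted p = 2.55e-04) and *Maoa*, the monoamine oxidase A, of -1.18 ± 0.13 (adjusted p = 1.55e-05).

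Conjugating and reducing enzymes also moved both ways. Of 24 glutathione genes, 3 were higher and 1 was lower, and with a random block for scan day 1 call was left. This was *Mgst3*, a microsomal glutathione transferase, which was higher at 11.70, 11.66, 11.74 and 11.48 in Line-C against 10.63, 10.70, 10.89 and 10.70 in S-D (0.92 ± 0.13, adjusted p = 1.42e-04). *Gstt3*, a theta-class transferase, differed by 1.26 ± 0.22 (adjusted p = 0.00159, and 0.0282 with a random block for scan day). Of 27 antioxidant enzymes and aldehyde reductases, 2 were higher and 3 were lower, and with a random block for scan day *Akr7a3* alone kept its call. *Akr7a3*, a reductase of aflatoxin aldehydes, had 8.89, 9.18, 8.61 and 8.81 in Line-C and 11.25, 11.01, 10.62 and 10.87 in S-D, with no overlap (-2.07 ± 0.28, adjusted p = 1.25e-04).

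Sterol enzymes were mixed by step. Of 20 cholesterol synthesis genes, 17 had a positive difference and the median was 0.50 log2 units, but 3 passed the test upwards and 1 downwards. *Hsd17b7*, the ketosteroid reductase of the pathway, had 8.27, 8.12, 7.75 and 8.00 in Line-C and 6.74, 5.54, 6.12 and 5.55 in S-D (2.05 ± 0.35, adjusted p = 0.00122). *Lss*, the lanosterol synthase that closes the sterol rings, ran the other way, with 6.61, 7.17, 7.10 and 6.80 in Line-C and 8.34, 7.61, 8.54 and 8.41 in S-D (-1.31 ± 0.21, adjusted p = 6.33e-04). Neither gene overlapped between groups, and both calls were lost with a random block for scan day (adjusted p = 0.0199 and 0.0146). A second ProbeSet of *Lss* differed by -0.69 and was not called. The other higher genes, *Tm7sf2* (1.03 ± 0.22) and *Ebp* (0.75 ± 0.17), a sterol reductase and a sterol isomerase, lost their calls when any of 7 and of 13 arrays was left out, with adjusted p up to 0.0257 and 0.0306 (each without S-D replicate 2). *Cyp7a1*, which sets the rate of bile acid synthesis, did not differ beyond its spread, at 10.40, 10.29, 7.25 and 8.76 in Line-C and 10.49, 9.14, 10.04 and 9.74 in S-D (adjusted p = 0.461). *Slc27a5*, the ligase that activates bile acids for conjugation, was higher at 13.01 ± 0.17 in Line-C against 12.03 ± 0.31 in S-D (adjusted p = 3.33e-04, and 0.0134 with only the 8 arrays of Line-C and S-D in the fit).

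Of 22 lipoprotein and sterol transport genes, 3 were higher and 1 was lower. *Apob*, the protein core of very low density lipoprotein, had 14.30, 14.30, 14.29 and 14.36 in Line-C and 13.85, 13.94, 13.81 and 13.84 in S-D, a small difference that was large beside the spread (0.45 ± 0.04, adjusted p = 1.61e-06). *Scarb1*, the receptor that takes up cholesterol from high density lipoprotein, was higher by 0.68 ± 0.09 (adjusted p = 1.25e-04), and *Abcg1*, an exporter of cholesterol, stood near the limit in Line-C at 4.05, 4.11, 3.92 and 4.05 and above it in S-D at 4.99, 5.57, 5.43 and 4.95 (-1.20 ± 0.16, adjusted p = 1.04e-04). Since Line-C replicate 3 was under the limit, the *Abcg1* difference is a lower bound in size. Fatty acid oxidation had 4 genes higher and 2 lower of 35, that is 17.1% called, beside 3.23% higher and 4.86% lower over all genes. None of the 6 calls was left with a random block for scan day. Fatty acid synthesis had 1 gene higher of 22, and glycolysis and gluconeogenesis had 1 lower of 26, and both calls were also lost with that block. *Fasn*, the fatty acid synthase, averaged 10.01 ± 0.55 in Line-C and 9.13 ± 0.33 in S-D (adjusted p = 0.0897), *Cpt1a*, which admits fatty acids to mitochondria, 10.42 ± 0.22 in Line-C and 10.14 ± 0.20 in S-D (adjusted p = 0.612), and *Pck1*, an enzyme of glucose synthesis, 13.03 ± 0.11 in Line-C and 13.38 ± 0.17 in S-D (adjusted p = 0.316).

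Among the genes lower in Line-C, *Agtr1a*, the type 1a receptor for angiotensin II, had the largest difference. Its level was 3.96, 4.10, 3.96 and 3.59 in the Line-C rats, around the limit of expression, and 10.73, 10.77, 10.59 and 10.71 in the S-D rats. The difference of -6.79 ± 0.16 (adjusted p = 2.44e-14) left the groups far apart. A second ProbeSet of the gene gave -6.13. Of 6 expressed genes of the renin-angiotensin system it was the only 1 called, and *Agt*, the precursor of angiotensin, averaged 13.09 ± 0.06 in Line-C and 12.85 ± 0.10 in S-D (adjusted p = 0.0791). *Lox*, the lysyl oxidase that cross-links collagen and elastin, was under the limit in every Line-C rat (2.39, 2.45, 3.12 and 2.48) and well expressed in every S-D rat (8.77, 9.41, 9.86 and 9.31), with a difference of -6.73 ± 0.95 (adjusted p = 1.96e-04) and of -4.54 in a second ProbeSet. *Marveld1*, a membrane protein with a MARVEL domain, followed the same split, with 2.39, 2.90, 2.33 and 2.50 in Line-C and 7.15, 7.90, 7.77 and 7.38 in S-D (-5.02 ± 0.42, adjusted p = 9.96e-07). The differences of these 3 genes are lower bounds in size.

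*Mup5*, a member of the major urinary protein family of small lipid carriers, had 6.04, 6.47, 7.10 and 6.19 in Line-C and 10.54, 10.45, 10.59 and 10.45 in S-D (-4.06 ± 0.28, adjusted p = 8.63e-08). The S-D rats agreed closely, but members of this family are near-identical, and the 2 other ProbeSets given this name differed by -1.58 (called) and by -0.66 (not called). *Obp3*, of the same family, averaged 13.32 ± 0.41 in Line-C and 14.39 ± 0.29 in S-D (-1.07 ± 0.21, adjusted p = 0.00322), and lost its call when any of 3 arrays was left out (adjusted p up to 0.0130, without S-D replicate 3). *Gne*, the first enzyme of sialic acid synthesis, had 5.81, 5.07, 4.99 and 4.96 in Line-C and 8.85, 8.24, 8.97 and 8.48 in S-D, 10.8-fold apart (-3.43 ± 0.20, adjusted p = 9.33e-09). *Cpd*, a carboxypeptidase of the trans-Golgi network, averaged 5.80 ± 0.41 in Line-C and 9.22 ± 0.34 in S-D (adjusted p = 2.77e-05), and *Hyou1*, a chaperone of the endoplasmic reticulum, 7.04 ± 0.30 in Line-C and 9.83 ± 0.15 in S-D (adjusted p = 5.74e-06). *Hyou1* was the only 1 called of 26 genes of the amino acid and unfolded protein stress responses.

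*C11h21orf91* had 4.42, 4.44, 4.43 and 4.37 in Line-C and 7.75, 8.48, 7.90 and 8.49 in S-D, so that the Line-C rats agreed closely just above the limit (-3.74 ± 0.40, adjusted p = 1.29e-05). *Adipor2*, a receptor for adiponectin, was under the limit in Line-C at 3.10, 3.03, 3.45 and 2.96 and above it in S-D at 5.93, 6.17, 6.47 and 5.47 (-2.88 ± 0.27, adjusted p = 3.42e-06). *Xiap*, an inhibitor of caspases, showed the same pattern with 3.37, 3.18, 3.20 and 3.98 in Line-C and 6.15, 6.39, 6.23 and 5.59 in S-D (-2.66 ± 0.38, adjusted p = 2.08e-04), and both differences are lower bounds in size. *Prkaa2*, a catalytic subunit of AMP-activated protein kinase, was expressed in both groups and was lower in Line-C, with 7.26, 7.64, 7.42 and 6.69 in Line-C and 9.57, 9.50, 9.44 and 9.49 in S-D (-2.25 ± 0.27, adjusted p = 3.79e-05), and was the only gene called of 19 in insulin and AMPK signalling. *Retsat*, the retinol saturase, had 9.32, 9.22, 9.17 and 9.68 in Line-C and 11.86, 11.52, 11.81 and 11.78 in S-D (-2.40 ± 0.14, adjusted p = 1.81e-08). Lower by like amounts were *Anp32a*, a nuclear phosphoprotein (-2.29 ± 0.24), *Hnrnpul1*, a ribonucleoprotein of RNA processing (-2.57 ± 0.29), and *Cryl1*, a dehydrogenase of sugar acids (-2.17 ± 0.26), with adjusted p of 9.03e-06, 2.72e-05 and 4.49e-05. *Acsm3*, a medium-chain acyl-CoA synthetase (-2.37 ± 0.53), and *Khsrp*, an RNA-binding protein of mRNA decay (-2.28 ± 0.46), also belonged to the 20 largest falls, but lost their calls when any of 15 and of 5 arrays was left out, with adjusted p of up to 0.0328 (without Line-C replicate 2) and 0.0166 (without Line-C replicate 4). The 2 further ProbeSets of *Khsrp* differed by 0.22 and 0.14 and were not called.

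Protease inhibitors had 2 genes higher and 6 lower of 33, of which 2 and 4 kept their call with a random block for scan day. *Serpina7*, the thyroxine-binding globulin of plasma, had 3.29, 4.02, 4.58 and 3.06 in Line-C and 6.26, 8.00, 6.08 and 7.48 in S-D, with a wide spread in both groups and no overlap (-3.22 ± 0.49, adjusted p = 3.98e-04, a lower bound in size). With only the 8 arrays of Line-C and S-D in the fit its call was lost (adjusted p = 0.0129). *Slpi*, an inhibitor of leukocyte proteases, had 7.44, 7.95, 7.28 and 7.43 in Line-C and 9.27, 9.58, 9.39 and 9.34 in S-D (-1.87 ± 0.17, adjusted p = 2.39e-06). *Serpina6*, the corticosteroid-binding globulin, was higher instead, with 13.13, 13.12, 13.32 and 13.19 in Line-C and 12.21, 12.51, 12.04 and 12.31 in S-D (0.92 ± 0.12, adjusted p = 1.04e-04). *Hsd11b1*, which reactivates glucocorticoids in liver, was lower in Line-C (-0.80 ± 0.12, adjusted p = 2.6e-04). *A2m*, an inhibitor of many proteases that rises in the acute phase in rats, had 5.14, 4.53, 4.29 and 4.70 in Line-C and 5.12, 8.27, 7.93 and 6.48 in S-D. S-D replicate 1 stood within the Line-C range, and the call (adjusted p = 0.00395) was lost when any of 5 arrays was left out (adjusted p up to 0.0154, without S-D replicate 3). It was the only gene called of 21 acute-phase proteins. *C8b*, a chain of the membrane attack complex of complement, averaged 9.11 ± 0.07 in Line-C and 11.37 ± 0.07 in S-D, but lost its call (adjusted p = 0.00418) when any of the 8 arrays of these groups was left out (adjusted p up to 0.0136, without S-D replicate 4). These p-values rest on the spread pooled over all 5 groups.

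Sex-biased liver proteins, which follow the pattern of growth hormone release, had 4 genes lower of 25, of which 2 kept their call without each array in turn and 1, *Mup5*, with a random block for scan day. *Cyp2c11*, the main male P450 of rat liver, averaged 13.61 ± 0.12 in Line-C and 13.80 ± 0.05 in S-D (adjusted p = 0.152). *Cyp2c12*, a female P450, had 11.12, 12.09, 12.70 and 11.25 in Line-C and 10.17, 9.32, 10.24 and 9.48 in S-D, and although every Line-C rat was above every S-D rat, the difference of 1.99 ± 0.59 missed the threshold (adjusted p = 0.0388). *Csad*, an enzyme of taurine synthesis, was lower at 8.61, 9.28, 8.53 and 8.86 in Line-C against 10.60, 10.76, 10.82 and 10.78 in S-D (-1.92 ± 0.36, adjusted p = 0.00260, and 0.0103 without Line-C replicate 3). *Hpd*, an enzyme of tyrosine breakdown, was higher by 0.55 ± 0.06 (adjusted p = 1.26e-05).

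**Figure D3:**
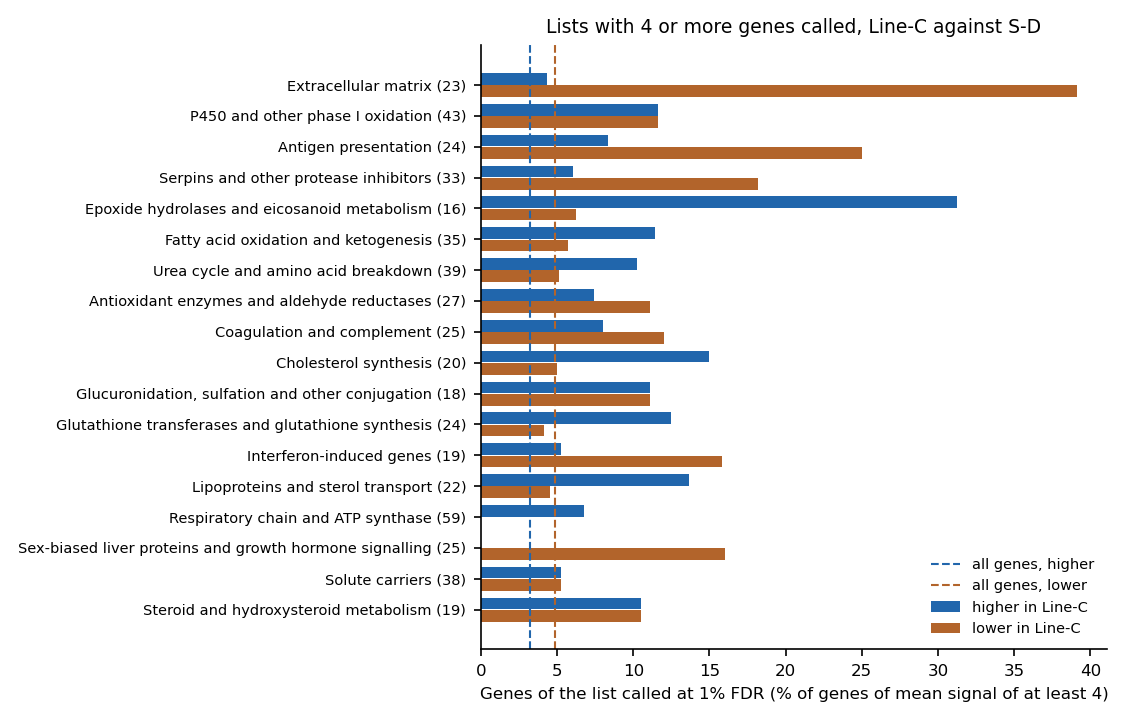
Share of the genes of each list that were called at 1% FDR in Line-C against S-D liver (horizontal axis, % of the list's genes with a mean signal of at least 4, their number in brackets), higher in blue and lower in brown, for gene lists with 4 or more calls (marker lists are not drawn). The dashed lines give the shares over all 5388 genes, 3.23% higher and 4.86% lower, and of the lists drawn extracellular matrix and antigen presentation reach furthest on the lower side.

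Extracellular matrix genes were mostly lower in Line-C, with 1 gene higher and 9 lower of 23, and their median difference was -0.57 log2 units, against 0.03 over all genes. Of the 9, 6 kept their call without each of the 20 arrays in turn and 4 with a random block for scan day, and with only the 8 arrays of Line-C and S-D in the fit 1 gene of the list was called lower. *Col1a2*, a chain of type I collagen, had 4.53, 5.22, 5.48 and 4.56 in Line-C and 6.25, 6.96, 6.03 and 6.62 in S-D (-1.52 ± 0.20, adjusted p = 8.54e-05). *Col3a1*, the chain of type III collagen, had 9.25, 9.83, 9.96 and 9.06 in Line-C and 10.75, 11.14, 10.42 and 11.11 in S-D (-1.33 ± 0.21, adjusted p = 6.38e-04, and 0.0154 with a random block for scan day). No Line-C rat reached the level of any S-D rat in either gene. *Col1a1*, the other chain of type I collagen, had 4.60, 5.19, 5.60 and 4.69 in Line-C and 7.22, 7.96, 5.13 and 8.55 in S-D. S-D replicate 3 fell within the Line-C range, and the call (adjusted p = 0.00903) was lost when any of 18 arrays was left out (adjusted p up to 0.0353, without S-D replicate 2).

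Both chains of the type IV collagen of basement membranes were lower, by nearly the same amount in the ProbeSets of highest signal. A second ProbeSet of *Col4a1* differed by -0.86 and was also called. *Col4a1* had 6.03, 5.99, 6.46 and 6.22 in Line-C and 7.46, 7.80, 6.71 and 7.39 in S-D (-1.16 ± 0.17, adjusted p = 2.34e-04), and *Col4a2*, named after its values were seen, had 4.49, 4.62, 4.71 and 4.55 in Line-C and 5.13, 6.0, 5.86 and 5.98 in S-D (-1.15 ± 0.16, adjusted p = 2.33e-04). The S-D rat with the lowest value was replicate 3 in *Col4a1* and replicate 1 in *Col4a2*. These genes are known to start back to back from a shared promoter. Their RefSeq promoter windows (250 bases before to 50 after the start, build GRCr8) overlap by 176 bases at chr16:84885471-84885646. The stretch is shown because it belongs to both genes, on the strand that reads into *Col4a1*, with the capitals marking its ATTGG, the reversed CCAAT box, a sequence found on either strand in 37.5% of 33469 promoters.
*Col4a1* and *Col4a2*: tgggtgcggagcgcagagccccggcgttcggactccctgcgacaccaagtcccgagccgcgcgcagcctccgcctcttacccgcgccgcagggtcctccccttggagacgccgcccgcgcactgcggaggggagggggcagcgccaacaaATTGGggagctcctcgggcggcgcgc

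Some markers of the cells that make matrix and vessels were lower too. The stellate cell and fibroblast list shares its collagens with the matrix list. Of 11 stellate cell and fibroblast markers above the limit, 4 were lower, and the mean of all 14 on the array lay between 5.05 and 5.52 over the Line-C arrays and between 5.43 and 6.16 over the S-D arrays. Of these 4 calls, 3 were kept without each array in turn and 2 with a random block for scan day. *Vim*, vimentin, had 7.09, 7.67, 7.45 and 6.82 in Line-C and 8.32, 8.88, 8.23 and 8.80 in S-D (-1.30 ± 0.19, adjusted p = 2.32e-04, and 0.0163 with only the 8 arrays of Line-C and S-D in the fit). The other markers called in the stellate cell and fibroblast list were the collagens *Col1a1*, *Col1a2* and *Col3a1*. Since these are counted in the matrix list as well, the 2 lists are not independent. The remaining markers of the list were not called by their ProbeSet of highest signal. Of 4 endothelial markers above the limit, 3 were lower, with a mean over 7 markers of 6.08 to 6.22 in Line-C and 6.45 to 6.61 in S-D. Of these 3 calls, 1 was kept without each array in turn and none with a random block for scan day. *Eng*, endoglin, had 8.62, 8.30, 8.06 and 8.65 in Line-C and 9.29, 9.10, 9.59 and 9.08 in S-D (-0.86 ± 0.13, adjusted p = 4.42e-04, 0.01003 with a random block for scan day, and 0.0229 with only the 8 arrays of Line-C and S-D in the fit). *Kdr*, a receptor for vascular growth factor named after its values were seen, averaged 9.88 ± 0.11 in Line-C and 10.19 ± 0.06 in S-D (adjusted p = 0.0195). The 7 cholangiocyte markers averaged 3.77 to 3.9 in Line-C and 4.53 to 4.63 in S-D, with *Slc4a2*, a bicarbonate exchanger, at 7.05, 7.11, 6.85 and 7.34 in Line-C and 9.05, 9.08, 9.09 and 9.05 in S-D (-1.98 ± 0.22, adjusted p = 1.93e-05), although only 2 of these markers passed the limit. Defining markers of these cells lay below the limit over the 20 arrays, desmin and lumican for stellate cells and fibroblasts, *Pecam1* and *Vwf* for endothelium, and *Krt7*, *Krt19* and *Spp1* for cholangiocytes. Of the markers of lymphocytes, granulocytes and red cells, 4 passed the limit, with positive differences and no call at 1% FDR. The part of the cell make-up in the lower matrix genes was not tested.

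Antigen presentation genes had 2 members higher and 6 lower of 24, and the 3 of these at the head of the list were neighbouring class II genes of the major histocompatibility complex on chromosome 20 of the GRCr8 annotation. Under a random block for scan day these 3 genes were the only ones of the list still called. The list did not hold the class I gene *RT1-CE12*, given further below. That gene was higher in Line-C by 3.54 and also kept its call with this block (limma adjusted p = 6.73e-08). Class II molecules pair an alpha with a beta chain on antigen-presenting cells. *RT1-Db1*, the beta chain of the D molecule, had 6.41, 6.78, 6.36 and 6.57 in Line-C and 8.70, 8.85, 8.54 and 9.29 in S-D (-2.31 ± 0.17, adjusted p = 1.52e-07). *RT1-Da*, its alpha chain, had 8.71, 9.21, 8.71 and 8.79 in Line-C and 10.35, 10.36, 10.32 and 10.54 in S-D (-1.54 ± 0.18, adjusted p = 2.72e-05). *RT1-Ba*, the alpha chain of the B molecule, had 6.89, 7.36, 7.02 and 7.01 in Line-C and 9.70, 8.68, 9.58 and 8.69 in S-D (-2.09 ± 0.27, adjusted p = 1.03e-04). The groups did not overlap in any of the 3 genes. Further ProbeSets of *RT1-Db1* and *RT1-Ba* differed by -0.77 and -0.18 and were not called. *RT1-Bb*, the beta chain of the B molecule, went the other way, with 6.32, 6.76, 6.06 and 6.23 in Line-C and 5.27, 5.20, 4.65 and 4.78 in S-D (1.36 ± 0.31, adjusted p = 0.00920), a call lost when any of 15 arrays was left out (adjusted p up to 0.0327, without Line-C replicate 2). These genes vary in sequence between strains, and the part of probe mismatch in the signals was not tested.

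The promoters of class II genes are known to carry a Y box, a reversed CCAAT box bound by NF-Y, downstream of an X box bound by RFX. Bases -150 to -31 from the RefSeq start (build GRCr8) are shown for both pairs of chains, because their levels moved in opposite directions within 1 pair. They lie at chr20:4515265-4515384 (+ strand) for *RT1-Da*, chr20:4560193-4560312 (- strand) for *RT1-Db1*, chr20:4576907-4577026 (+ strand) for *RT1-Ba* and chr20:4604149-4604268 (- strand) for *RT1-Bb*. The capitals mark CTGATTGG. It was searched on both strands of whole promoter windows, 250 bases before to 50 after the start, which are longer than the stretches shown. Of 33469 such windows 3.5% held it.
*RT1-Da*: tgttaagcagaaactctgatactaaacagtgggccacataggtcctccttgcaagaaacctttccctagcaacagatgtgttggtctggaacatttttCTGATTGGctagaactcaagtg
*RT1-Db1*: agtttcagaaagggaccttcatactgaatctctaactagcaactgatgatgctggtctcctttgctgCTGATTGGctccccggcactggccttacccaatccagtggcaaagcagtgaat
*RT1-Ba*: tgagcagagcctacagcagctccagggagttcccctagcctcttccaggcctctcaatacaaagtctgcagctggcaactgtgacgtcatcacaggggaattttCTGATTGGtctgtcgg
*RT1-Bb*: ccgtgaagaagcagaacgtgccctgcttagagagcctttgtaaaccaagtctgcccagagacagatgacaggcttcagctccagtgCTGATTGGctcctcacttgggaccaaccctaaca
The 8 bases were present once in each of these 4 windows, starting at base -52 in *RT1-Da*, -83 in *RT1-Db1*, -46 in *RT1-Ba* and -64 in *RT1-Bb*, and so in the lower genes as in the higher one. The windows of *Cd74* and *RT1-DMa* did not hold these letters. The sequence is the reference genome's and not that of Line-C or S-D.

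*Cd74*, the invariant chain that escorts class II molecules, was lower as well, with 9.88, 10.39, 10.01 and 10.25 in Line-C and 10.94, 11.08, 10.86 and 11.20 in S-D (-0.89 ± 0.16, adjusted p = 0.00195, and 0.0351 with a random block for scan day). *Ciita*, the known activator of class II genes, stood at 5.53 ± 0.02 in Line-C and 5.55 ± 0.09 in S-D (adjusted p = 0.600). Both genes were named after their values were seen. Of 9 macrophage markers, 3 were lower and 1 was higher, and their mean lay between 8.05 and 8.33 over the Line-C arrays and between 8.18 and 8.62 over the S-D arrays. None of these 4 calls was kept with a random block for scan day, and 1, *C1qc*, was kept without each array in turn. *C1qc*, a chain of complement C1q, had 9.04, 8.94, 8.76 and 9.14 in Line-C and 9.66, 10.01, 9.66 and 9.79 in S-D (-0.81 ± 0.15, adjusted p = 0.00183, and 0.0197 with a random block for scan day). *Cd14*, a co-receptor for lipopolysaccharide, was higher, with 10.18, 10.27, 10.11 and 10.13 in Line-C and 7.54, 9.16, 8.92 and 9.10 in S-D (1.49 ± 0.31, adjusted p = 0.00520), and lost its call when any of the 4 Line-C arrays was left out (adjusted p up to 0.0164, without replicate 2). *Clec4f*, a lectin of Kupffer cells named after its values were seen, averaged 10.18 ± 0.17 in Line-C and 10.27 ± 0.26 in S-D (adjusted p = 0.661). The part of macrophage number in the class II levels was not tested.

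A class I gene was higher in Line-C, and interferon-induced genes went both ways. *RT1-CE12*, a class I heavy chain gene, had 10.49, 10.96, 11.18 and 10.93 in Line-C and 7.22, 7.47, 7.19 and 7.53 in S-D (3.54 ± 0.17, adjusted p = 6.72e-10). Class I genes are near-identical copies, so this signal may be shared among several of them. Of 19 interferon-induced genes, *Bst2* was higher and 3 were lower, and with a random block for scan day *Bst2* and *Ifitm1* kept their calls. The lower genes included *Ifitm1*, a membrane protein that restricts virus entry, with 7.92, 7.84, 7.66 and 7.98 in Line-C and 9.24, 9.48, 9.45 and 9.30 in S-D (-1.52 ± 0.12, adjusted p = 6.73e-07).

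**Figure D4:**
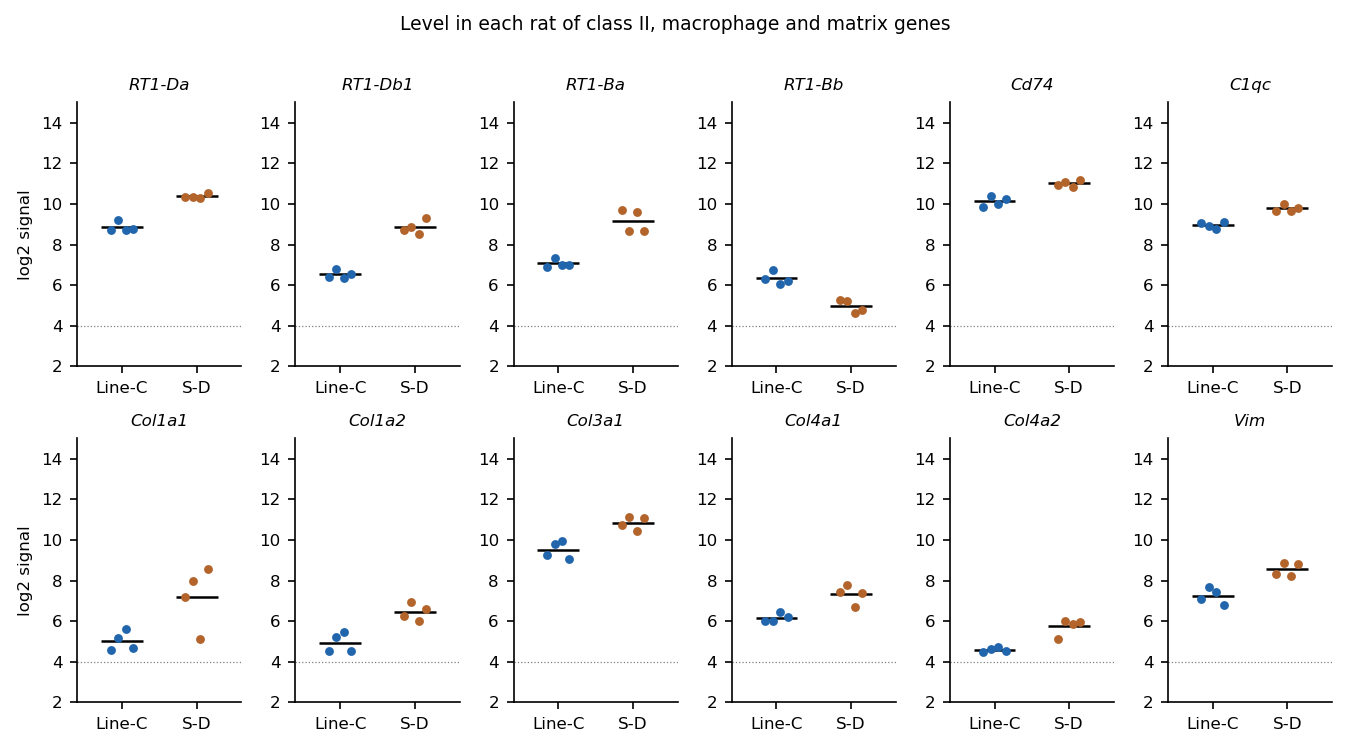
Level of class II, macrophage and matrix genes in each rat (vertical axis, log2 GC-RMA signal, points are rats, bars are group means, the dotted line is the limit of 4), with Line-C left and S-D right in each panel. *RT1-Bb* is the only panel in which Line-C is the higher group, and S-D replicate 3 lies within the Line-C range in *Col1a1*.

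Line-C and S-D were then placed among all 5 groups, whose means come from the same fit. S-D had the highest or the lowest mean of the 5 groups in 364 of the 436 called genes (83.5%, against 46.7% of all 5388), and Line-C in 183 (42.0%, against 30.8%). Since the calls rest on the distance between these 2 groups, such shares are raised by the choice itself. In *Ephx2*, *Hsd17b6*, *Anp32a* and *Slpi* the other 4 groups stood together and S-D stood apart. *Hsd17b6* averaged 13.07 ± 0.18 in Line-C, 13.29 ± 0.31 in Line-A, 13.21 ± 0.24 in L-E, 13.17 ± 0.22 in H/W and 10.63 ± 0.26 in S-D. *Slpi* averaged 7.53 ± 0.29 in Line-C, 7.44 ± 0.11 in Line-A, 7.46 ± 0.09 in L-E, 7.72 ± 0.44 in H/W and 9.39 ± 0.13 in S-D.

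Line-C stood with L-E, and S-D with H/W, in some other called genes. *Agtr1a* averaged 3.91 ± 0.22 in Line-C, 10.79 ± 0.18 in Line-A, 3.54 ± 0.39 in L-E, 11.12 ± 0.17 in H/W and 10.70 ± 0.07 in S-D. Line-C was thus near its L-E parent (adjusted p = 0.0958) and far from H/W (adjusted p = 4.56e-15). *Marveld1* averaged 2.53 ± 0.26 in Line-C, 8.46 ± 1.07 in Line-A, 2.30 ± 0.00 in L-E, 6.89 ± 0.78 in H/W and 7.55 ± 0.35 in S-D. *Gne* was low in both lines and in L-E, with 5.21 ± 0.41 in Line-C, 5.05 ± 0.12 in Line-A, 5.40 ± 0.22 in L-E, 9.22 ± 0.29 in H/W and 8.63 ± 0.33 in S-D. *Mup5*, *Retsat* and *Lss* were likewise low in both lines and L-E and high in H/W and S-D, with Line-C means of 6.45, 9.35 and 6.92, H/W means of 10.72, 11.77 and 8.95, and S-D means of 10.51, 11.74 and 8.23. The difference between Line-C and H/W passed 1% FDR in each of these 6 genes, while that between Line-C and L-E passed it in none of them (adjusted p from 0.0704 to 0.672). These 6 genes, like *Ephx2*, *Hsd17b6*, *Anp32a* and *Slpi*, were picked from the called genes to show a pattern. The values therefore describe these genes only, and how many called genes follow this pattern or its reverse was not counted.

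**Figure D5:**
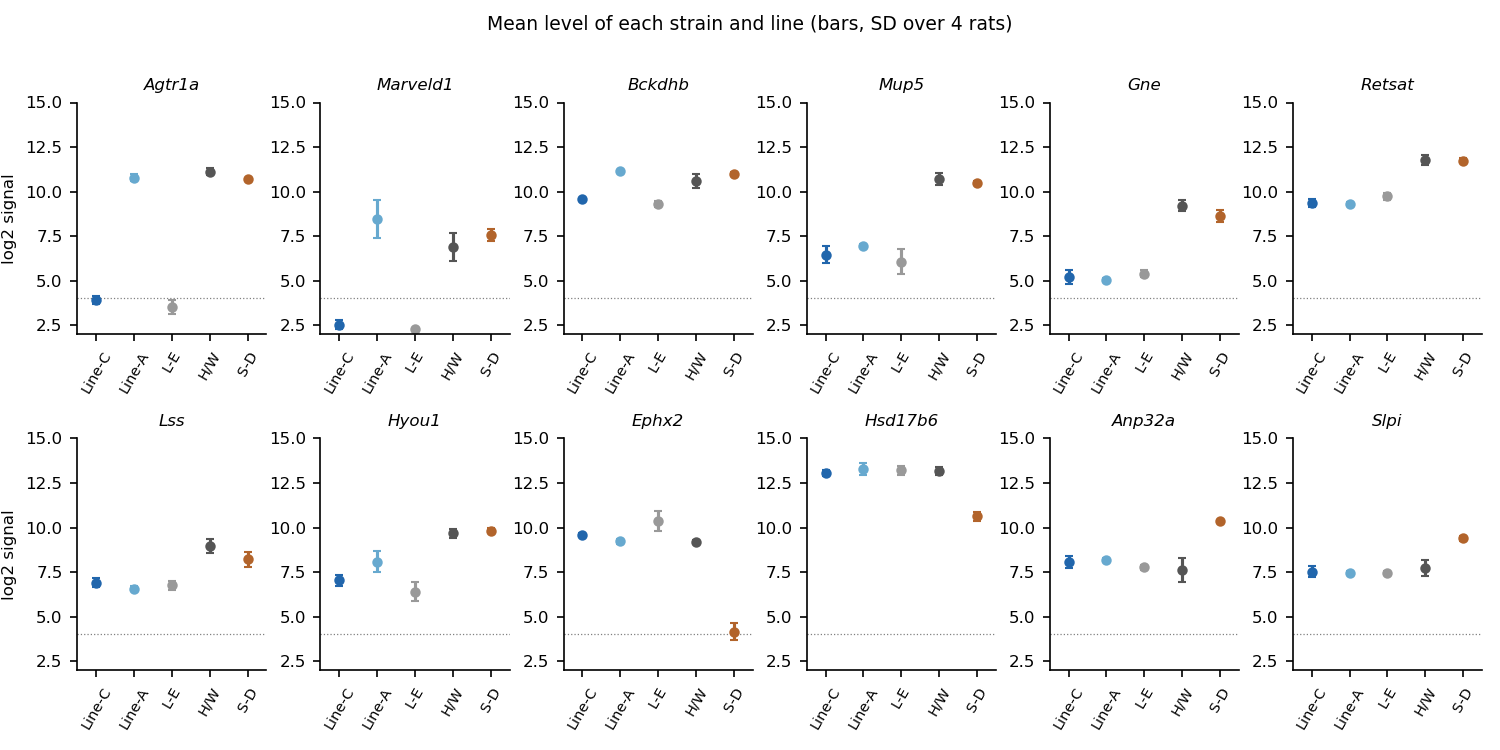
Mean level of 12 called genes in the 5 groups (vertical axis, log2 GC-RMA signal, bars are the SD over 4 rats, the dotted line is the limit of 4), from Line-C at the left to S-D at the right. In the first 8 panels S-D stands near H/W and Line-C near L-E. In the last 4 panels S-D stands apart from the other groups. The genes were picked to show these patterns.

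Line-A, bred from the same crosses, was scanned on the same day as Line-C. Line-C and Line-A differed in 53 of 5388 genes (0.984%), a comparison that shares the Line-C arrays with that against S-D. *Selenow*, the selenoprotein W, had 6.36, 6.73, 6.96 and 6.90 in Line-C and 4.98, 4.94, 4.97 and 5.75 in S-D, and averaged 4.47 ± 0.17 in Line-A, 5.14 ± 0.15 in L-E and 5.12 ± 0.81 in H/W. *Sirt3*, a mitochondrial deacetylase, had 5.20, 4.79, 5.17 and 4.78 in Line-C and 6.45, 6.59, 6.54 and 7.18 in S-D, and averaged 7.27 ± 0.36 in Line-A, 7.29 ± 0.12 in L-E and 6.43 ± 0.54 in H/W. In both genes Line-C differed from each of the other 4 groups at 1% FDR, upwards in *Selenow* (adjusted p = 0.00246 against S-D and 4.44e-04 against Line-A) and downwards in *Sirt3* (1.56e-04 and 3.86e-05). Without S-D replicate 2 the adjusted p of *Selenow* against S-D was 0.0101, and with a random block for scan day it was 0.0386. *Dnaja4*, a co-chaperone of heat shock proteins, was higher in Line-C than in S-D by 1.10 ± 0.13 (adjusted p = 3.02e-05) and than in Line-A (adjusted p = 0.00120), and *Hypk*, a chaperone at the ribosome, was higher by 0.82 ± 0.11 (adjusted p = 1.38e-04, and 0.00337 against Line-A). *Bckdhb*, a subunit of branched-chain keto acid dehydrogenase, had 9.60, 9.58, 9.60 and 9.51 in Line-C and 11.03, 11.00, 10.79 and 11.09 in S-D (-1.41 ± 0.14, adjusted p = 5.96e-06), with 11.15 ± 0.09 in Line-A (adjusted p = 6.40e-06). As a yardstick, H/W and L-E differed in 135 genes (2.51%), of which 34 were among the 436.

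The rats of a group varied a little more in Line-C than in S-D. The median SD over the 7168 ProbeSets was 0.15 log2 units in Line-C and 0.12 in S-D, 4587 ProbeSets had the larger SD in Line-C, and 29 ProbeSets reached an SD of 1 in Line-C against 18 in S-D. The largest SDs of Line-C were those of *Ythdf2*, a reader of methylated RNA, *Sgk1*, a kinase induced by glucocorticoids, and *Onecut1*, a hepatocyte transcription factor. *Ythdf2* had 9.23, 5.43, 5.54 and 8.54 in Line-C and 8.33, 8.26, 8.35 and 8.12 in S-D, and *Sgk1* had 10.86, 11.08, 9.83 and 6.96 in Line-C and 9.45, 10.67, 10.14 and 9.33 in S-D. In *Ythdf2* the Line-C rats fell into a high and a low pair, whereas in *Sgk1* only replicate 4 was low. In *Onecut1* both groups were scattered, with 4.44, 3.22, 7.02 and 2.85 in Line-C and 6.21, 3.19, 6.07 and 4.09 in S-D. In S-D the largest SDs were those of *Egr1*, an immediate early gene, with 4.74, 6.67, 5.39 and 4.86 in Line-C and 5.28, 8.28, 4.47 and 8.18 in S-D, and of *Nqo1* and *Gadd45g*, a stress-response gene, which had 4.40, 3.74, 4.44 and 4.88 in Line-C and 4.06, 5.07, 3.47 and 7.57 in S-D. None of these genes but *Nqo1* passed the test (adjusted p = 0.185 for *Ythdf2*, 0.828 for *Sgk1*, 0.806 for *Onecut1*, 0.325 for *Egr1* and 0.592 for *Gadd45g*). *Asns*, the asparagine synthetase, was under the limit in all Line-C rats, at 2.55, 2.58, 2.6 and 2.58, but not in all S-D rats, at 4.98, 3.49, 2.54 and 4.77 (adjusted p = 0.0200), and *Atf4*, the factor that is known to induce it, averaged 9.79 ± 0.20 in Line-C and 10.13 ± 0.27 in S-D (adjusted p = 0.237).

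Several lists held no called gene at 1% FDR in limma. These were the liver nuclear receptors and transcription factors (27 genes), serine, glycine and one-carbon metabolism (20), iron and haem (19) and the circadian clock (9), whose median differences lay between -0.05 and 0.07 log2 units. At an unadjusted limma p under 0.05 the counts were 0, 5, 7 and 1 in the same order, beside 2577 of all 7168 ProbeSets. No other tool was run. Over all genes, 3.23% were called higher and 4.86% lower. Beside this, the respiratory chain and ATP synthase had 4 genes higher of 59 (6.8% called), with differences of the list between -0.25 and 0.43. The count was 12 higher under array weights and 0 under equal array medians. The cytosolic ribosomal proteins had 3 higher of 39 (7.7% called), with differences between -0.29 and 0.33, and 9 lower with array weights. In both lists no call was left with a random block for scan day. *Rab14*, a small GTPase of membrane traffic named after its values were seen, was the only called gene whose further ProbeSets were called the opposite way, at 1.21 in the ProbeSet of highest signal and at -2.26, -0.80 and -3.15 in the others, so no direction can be given for it. Of the 80 further ProbeSets of 66 called genes, 16 were called the same way, 47 had the same sign and 14 the opposite sign without a call.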

How the data were processed

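Gene expression was measured in whole liver of 20 male rats, 4 of each strain or line, with 1 RAE230A array for each rat. The authors deposited log2 GC-RMA signals, already background-corrected and quantile-normalised, which were used as they stand. The submitters' processing notes name R 2.6.1, affy 1.12.0 and GCRMA 2.10.0. The deposited array headers, of no fixed unit, were used only for scan day, chip lot and operator.

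A model with 1 mean for each group was fitted to the log2 values of all 20 arrays and 15923 ProbeSets with limma 3.58.1 (R 4.3.3, statmod 1.5.0), and the contrast of Line-C minus S-D was taken with adjustment over all ProbeSets and called at 1% FDR. Results were described for 7168 ProbeSets, those whose mean reached 4. The procedure was tested on simulated data. The number of arrays limits the precision. The p-values rest on the spread between rats of the same group, pooled over all 5 groups (15 residual degrees of freedom), and not on the spread of Line-C and S-D alone. Gene symbols came from the platform annotation (12789 ProbeSets with 1 symbol), of which 12754 were updated by gene identifier to RefSeq (GRCr8), and each gene was represented by its ProbeSet of highest mean signal. Promoter sequences are those of RefSeq (GRCr8).

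Genes were named by a rule: the 20 largest differences in each direction among called genes with no overlap, up to 5 called genes of each list with key genes of the lists whether called or not, up to 10 called genes that also differed from Line-A, the members of neighbouring runs, and the 6 largest SDs of each group. From these, 106 genes are discussed. Col4a2, Cd74, Rab14, Ciita, Clec4f and Kdr were added after their values were seen. The comparison, the members of the 38 gene lists and 11 marker lists, and the rule were chosen with earlier results of these data known. Alternatives were a mean-variance trend, a robust prior, array weights, further quantile normalisation, equal array medians, the 8 arrays alone, a fit on expressed ProbeSets only, scan day as a random block, the replicate number as a block, each array left out, 5% FDR and other limits on signal.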

Additional observations from a re-analysis of the deposited data

Results flagged for a closer look

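In 14 of 212 groups of 4 rats that were tested, 1 per gene and group, a single rat lay so far from the other 3 that its gap passed the 95% limit of Dixon's test, where chance gives about 1 in 20 groups. Among the Line-C rats, *Mpdz* stood at 7.08 log2 units in replicate 3, against 5.79 to 5.91 in the others, and *Lox* at 3.12 in replicate 3, against 2.39 to 2.48, all below the limit of expression. *Uba6* stood at 5.23 in Line-C replicate 4, against 5.97 to 6.07, *Gne* at 5.81 in Line-C replicate 1, against 4.96 to 5.07, and *RT1-Da* at 9.21 in Line-C replicate 2, against 8.71 to 8.79.

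S-D replicate 3 stood apart in 5 genes, with *Adh4* at 3.15 (3.70 to 3.71 in the other S-D rats), *Eif4ebp3* at 7.86 (7.25 to 7.27), *Hyou1* at 10.06 (9.75 to 9.77), *Hnrnpul1* at 7.08 (6.71 to 6.75) and *Alb* at 16.71 (16.66). S-D replicate 4 stood apart in *Selenow* at 5.75 (4.94 to 4.98) and *Cpt1a* at 10.44 (10.02 to 10.05). S-D replicate 1 stood apart in *Col4a2* at 5.13 (5.86 to 6.0) and in *Cd14* at 7.54 (8.92 to 9.16). None of these rats crossed into the range of the other group in a called gene.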

How the results depend on the processing

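The count of 611 called ProbeSets (224 higher and 387 lower in Line-C) was 206 with a random block for scan day (62 higher and 144 lower, all 206 among the 611), 1808 with array weights (946 higher and 862 lower) and 1299 at 5% FDR (573 higher and 726 lower). Equal array medians gave 585 calls, 120 higher and 465 lower, so that the share of lower calls was 79.5%, against 63.3% in the fit as reported and 47.7% with array weights. When each array was left out in turn, the count lay between 428 (without S-D replicate 2) and 797 (without H/W replicate 3), with 137 to 322 higher and 285 to 475 lower. The remaining alternatives gave 476 to 740 calls, the lowest with only the 8 arrays of Line-C and S-D, which share 359 ProbeSets with the 611. The cause of these shifts was not tested. Of the 85 called genes named here, 48 kept their call and direction in every alternative run, 66 kept it without each array in turn and 29 lost it with a random block for scan day.

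The replicate numbers name the rats and are not said to pair them. Deviations from the group means correlated at 0.05, 0.11, -0.14 and 0.17 between rats of the same number, so the samples share only a number. With the replicate block 536 ProbeSets were called (193 higher and 343 lower), of which 510 were among the 611, and of the called genes named here *Acsm3*, *Ebp* and *Col1a1* lost their call.

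Of the genes that were not called, 8 changed sign in single alternatives. With further quantile normalisation the difference was -0.0494 for *Ahr*, -0.0119 for *Arnt*, 0.00 for *Alb* and 0.0326 for *Ciita*, and with equal array medians it was -0.0512 for *Ahr*, -0.0158 for *Arnt* and -0.0588 for *Alb*. With each array left out it ranged from -0.68 to 0.69 for *Sgk1* (without Line-C replicates 2 and 4, and 0.04 without S-D replicate 2), from -1.39 to 0.0009 for *Onecut1* (without Line-C replicates 3 and 4), from -1.20 to 0.17 for *Gadd45g* (without S-D replicates 3 and 4), from -0.0476 to 0.0186 for *Ciita* (without S-D replicates 1 and 3) and from -0.167 to 0.0111 for *Clec4f* (without S-D replicates 4 and 2). Signals below 4 cannot be told from background, so differences that reach below it are bounds.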
